A study of Mus musculus with 12 samples.

Results

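Cytosolic ribosomal protein genes were examined in RNA sequencing of whole mouse bone marrow. The set was defined by gene name: rows of the deposited count table whose symbol is Rpl or Rps followed by a number, with an optional a, x or l ending and further number, plus Rplp0, Rplp1, Rplp2 and Rpsa. It holds 90 of 53801 genes, 54 of the large and 36 of the small subunit, and no measured value was used to choose it. Of these, 85 passed the filter on low counts (51 large, 34 small). Rpl10l and Rps12l1 had no counts, and Rpl32l, Rps3a3 and Rpl39l were below the filter with 3, 16 and 57 counts over all libraries. Among all members, 13 are paralogues or processed copies of another member (8 of them tested), which leaves 77 tested genes here called core.

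The ribosome makes protein from mRNA. Its small subunit decodes the message, and its large subunit joins amino acids and threads the new chain through an exit tunnel. Most ribosomal protein mRNAs begin with a run of pyrimidines, the terminal oligopyrimidine (TOP) tract, through which mTOR signalling controls their translation. Bone marrow makes blood cells at a high rate, and in people the loss of 1 copy of one of several ribosomal protein genes (RPS19 is the best known) causes Diamond-Blackfan anaemia, a failure of red cell production.

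All animals were of the C57BL/6N strain. The groups, named as in the labels, were Sham, Sham-E, MI and MI-E, with 3 libraries each. MI stands for the infarcted animals, in which the left anterior descending coronary artery (LAD) was tied off, and E for those given EMPA. The sources used here do not give age, sex, the dose of EMPA or the time after surgery. Nothing says that each library is a separate mouse, so p-values measure the spread between these samples, which may be technical. Libraries are named by group and column number, such as MI 2.

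Libraries held 21175087 to 24606783 counts. The labelled tissue was checked by markers: summed levels over all libraries were 6978 to 47230 CPM for 13 erythroid genes, 19290 to 41900 CPM for 9 immature neutrophil genes and 151.3 to 241.3 CPM for 10 stem and progenitor cell genes. MI 2 stood apart among the ribosomal protein genes, being the lowest of the 12 libraries for 59 of 85 members, against 12.6% of all genes tested. MI-E 3 was the highest for 55 of 85, against 7.99% of all genes. The mean insert length recovered from the tables was 263.3 to 265.2 bp in MI and 271.1 to 286.9 bp in the other libraries. Insert length and infarction without EMPA therefore cannot be told apart. In bulk RNA, fewer cells of a type and less RNA per cell cannot be told apart either. Ribosomal protein genes have many processed pseudogenes with near-identical sequence, so how reads were split among copies is uncertain. Rows whose symbol is an Rpl or Rps name with a ps ending held 0.00308% to 0.0088% of counts in every library. This share leaves out copies under other names and does not show how many reads went to the wrong copy.

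The share of all counts that fell on the 90 genes was highest in MI-E. It was 4.96%, 5.10% and 4.99% in Sham 1, 3 and 4, and 4.73%, 4.81% and 4.99% in Sham-E 1, 2 and 3. It was 5.83%, 3.80% and 5.74% in MI 1, 2 and 3, and 6.33%, 6.60% and 5.99% in MI-E 2, 3 and 4. All 3 MI-E libraries lay above the other 9, and the MI group was split by the low value of MI 2. The group means were 5.01% ± 0.0711 in Sham, 4.84% ± 0.134 in Sham-E, 5.12% ± 1.15 in MI and 6.31% ± 0.307 in MI-E (SD, n = 3 each). In TPM, which divides by effective transcript length, the shares were 15.5% ± 0.213, 14.6% ± 0.338, 14.0% ± 2.87 and 17.4% ± 0.664 in the same order. MI-E libraries (16.9% to 18.2%) again lay above all others (10.7% to 15.9%).

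Large and small subunit genes did not keep the same proportion in all groups. Counts on large subunit genes divided by counts on small subunit genes gave 1.337, 1.341 and 1.316 in Sham, and 1.295, 1.323 and 1.296 in Sham-E. The ratio was 1.214, 1.219 and 1.208 in MI, and 1.354, 1.262 and 1.305 in MI-E. Every MI library was below every other library, MI 2 included, although its shares of both subunits were the lowest measured. In TPM the ratio was 1.129 to 1.142 in MI and 1.181 to 1.273 elsewhere. Among the 77 core genes, the mean log2 CPM of large minus small subunit genes was -0.277 to -0.259 in MI and -0.213 to -0.125 in the other 9 libraries. These values summarise the members and carry no test.

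**Figure D1:**
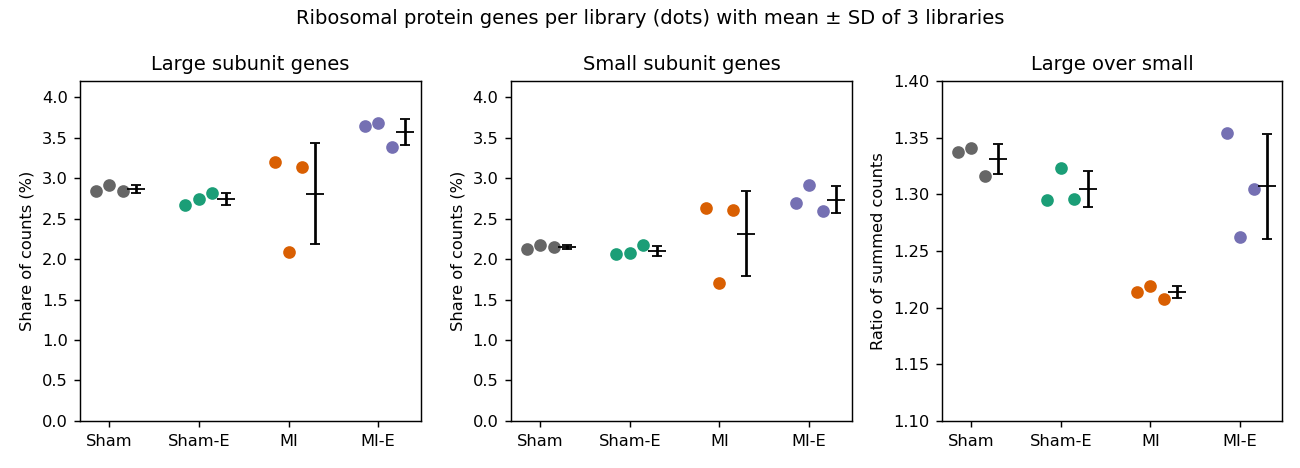
Share of counts on large (left) and small (middle) subunit genes in percent, and their ratio (right, axis from 1.1), for each library (dots) with mean ± SD of 3 libraries. The MI-E libraries have the highest shares of large subunit genes. For small subunit genes MI-E 4 (2.598%) is below MI 1 (2.631%) and MI 3 (2.601%). The ratio is 1.208 to 1.219 in the MI libraries against 1.262 to 1.354 in the others.

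Levels within the set spanned several orders of magnitude. By mean TPM over the 12 libraries, Rps27 was the highest (7816), followed by Rplp1 (5184), Rpl13a (4890), Rps12 (4453) and Rps14 (4163). Rps27 and Rps14 are small subunit proteins, Rplp1 belongs to the stalk that recruits elongation factors, and loss of one copy of RPS14 marks the 5q- form of myelodysplastic syndrome. The lowest tested members were all paralogues or copies: Rpl7l1 (47.2 TPM), Rps4l (19.98), Rps3a2 (6.06), Rpl6l (1.96) and Rpl3l (0.556), the last being the striated muscle form of Rpl3. Rpl3 itself, a core protein near the peptidyl transferase centre, was read at 893.0 to 941.5 CPM in Sham, 890.3 to 918.4 CPM in Sham-E, 859.1 to 1151 CPM in MI and 1136 to 1228 CPM in MI-E. CPM here is a gene's counts scaled to a common library size after TMM, which corrects library totals for composition.

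MI and Sham marrow differed in 2 members. Rpl35a rose and Rpl22l1 fell (edgeR quasi-likelihood test, adjusted over all 15119 genes), 2 of 85 members against 0.417% of all genes tested. Of the 85 members, 58 had a log2 fold change above 0, against 52.4% of all genes, and the median was 0.12 against 0.02 for all genes. At an unadjusted p under 0.05 there were 15 higher and 3 lower members, against 10.9% and 8.61% of all genes (19.5% in either direction). In log2(TPM + 1), 29 of 85 members were above 0, against 36% of all genes, with a median of -0.17 against -0.11 for all genes. Without MI 2, 70 of 85 members were above 0, against 51.4% of all genes, with a median of 0.28 against 0.02 for all genes. The libraries of MI then lay wholly above those of Sham for 56 members (22.5% of all genes) in place of 13 (13.4%). Without MI 1, 43 of 85 were above 0, against 52.0% of all genes, with a median of 0.01 against 0.02 for all genes. Without MI 3, 47 were above 0, against 50.2% of all genes, with a median of 0.06 against 0.00 for all genes. The count of positive members thus varied with the MI libraries included. Large subunit genes had a median of 0.10 and small subunit genes 0.21 on counts. In log2(TPM + 1) these were -0.18 and -0.07, against -0.11 for all genes.

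Rpl35a, a large subunit protein needed for processing of the large subunit rRNA and a Diamond-Blackfan anaemia gene, lies at chr16:33056453-33060189 on GRCm38. Its level was 196.5, 230.8 and 204.4 CPM in Sham, 233.5, 232.4 and 287.7 CPM in Sham-E, 469.0, 348.9 and 565.5 CPM in MI, and 315.6, 386.6 and 315.9 CPM in MI-E. All MI libraries were above all Sham and Sham-E libraries, and MI 2 was within the range of MI-E. The log2 fold change of MI against Sham was 1.13 ± 0.182 (SE), a 2.19-fold increase, with an adjusted p of 0.0309. The call was lost in edgeR fits without Sham 1, Sham 3, Sham 4, Sham-E 2, MI 3, MI-E 2 or MI-E 4, in turn. In those fits the log2 fold change was 0.96 (without MI 3) to 1.18 (without Sham 3). The edgeR adjusted p was 0.053 (without Sham-E 2) to 0.16 (without Sham 4). It was 1 of 18 measured Diamond-Blackfan anaemia genes, of which 10 had positive values.

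Rpl22l1, the paralogue that can take the place of Rpl22 in the large subunit, lies at chr3:28805436-28807424. Its level was 101.1, 88.5 and 94.6 CPM in Sham, 98.3, 68.8 and 73.7 CPM in Sham-E, 40.4, 40.4 and 43.4 CPM in MI, and 68.3, 124.5 and 74.4 CPM in MI-E. The 3 MI libraries were close together and below every other library. The log2 fold change of MI against Sham was -1.195 ± 0.21 (SE), with an adjusted p of 0.0366 (edgeR). This call was lost in fits without each of the same 7 libraries, and also without MI 1. The log2 fold change was -1.26 (without Sham 3) to -1.17 (without Sham 1) in those fits.

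Rpl22, an RNA-binding large subunit protein involved in lymphocyte development, was read at 263.7, 260.8 and 274.0 CPM in Sham, 252.5, 231.4 and 281.6 CPM in Sham-E, 241.1, 191.0 and 271.7 CPM in MI, and 285.3, 342.9 and 298.5 CPM in MI-E. Its MI and Sham libraries overlapped, and its log2 fold change was -0.18 ± 0.15 (SE; edgeR adjusted p = 0.526). In TPM, Rpl22l1 was 0.343 ± 0.0273 times the level of Rpl22 in Sham, 0.271 ± 0.0729 in Sham-E, 0.141 ± 0.0269 in MI and 0.223 ± 0.0603 in MI-E (SD, n = 3 each). The MI ratios (0.121 to 0.171) were below those of all other libraries (0.185 to 0.374). A two-sided exact permutation test gave p = 0.1 for MI against Sham and for MI-E against MI, the smallest p that 3 against 3 libraries allow, and 0.2 after Benjamini-Hochberg adjustment over 4 comparisons. For Sham-E against Sham and MI-E against Sham-E the exact permutation p was 0.3 and 0.5.

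Other members at the upper end of MI against Sham did not pass the test. Rpl6l, a processed pseudogene, was 0.91 higher on the log2 scale at 0.369 to 1.71 CPM over all libraries. Rpl37 had a log2 fold change of 0.78 ± 0.174 (adjusted p = 0.0609) on counts. With effective length as an offset its value was 0.20 (edgeR adjusted p = 0.51), and on log2(TPM + 1) it was 0.04 (limma adjusted p = 0.91). Rps6, the small subunit protein phosphorylated by S6 kinase, was at 657.0, 663.7 and 670.5 CPM in Sham, 738.3, 692.8 and 733.8 CPM in Sham-E, 1030, 874.9 and 1285 CPM in MI, and 836.2, 953.0 and 890.3 CPM in MI-E. Its MI and MI-E libraries overlapped, and each MI library was above each Sham and Sham-E library. Its log2 fold change was 0.68 ± 0.154 (adjusted p = 0.0625), and Rps21 had 0.65 ± 0.198 (adjusted p = 0.114).

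At the lower end stood large subunit genes of high level and a few copies. Rpl28 was at 485.7, 527.2 and 475.4 CPM in Sham, 461.7, 461.9 and 418.3 CPM in Sham-E, 399.9, 193.5 and 247.2 CPM in MI, and 616.5, 572.1 and 581.2 CPM in MI-E. All MI libraries were below all others and spread more widely than the other groups. Its log2 fold change was -0.82 ± 0.213 (edgeR adjusted p = 0.0812). Rpl39, a very short protein of the exit tunnel rim, had -0.55 ± 0.172 (adjusted p = 0.116), and its MI libraries (169.3 to 253.2 CPM) were below those of Sham (270.1 to 369.1 CPM). Rpl3l (-0.77) and Rps3a2 (-0.70) were at low level and overlapped between the groups. DESeq2 called 10 members in this comparison (7.05% of all genes), namely Rpl35a, Rpl37, Rps6, Rps15a, Rps21, Rps26 and Rpl10 as higher and Rpl22l1, Rpl28 and Rpl39 as lower. Limma called 11 members on each TPM scale (1.87% of all genes with a pseudocount of 1 and 1.78% with 0.1). Without MI 2 edgeR called 7 members (1.84% of all genes), and without MI 1 it called 2 (0.743%), Rpl35a and Rpl28. Without Sham-E 1 it called 7 (7.9%), and with no filter on low counts 3 (0.625%).

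**Figure D2:**
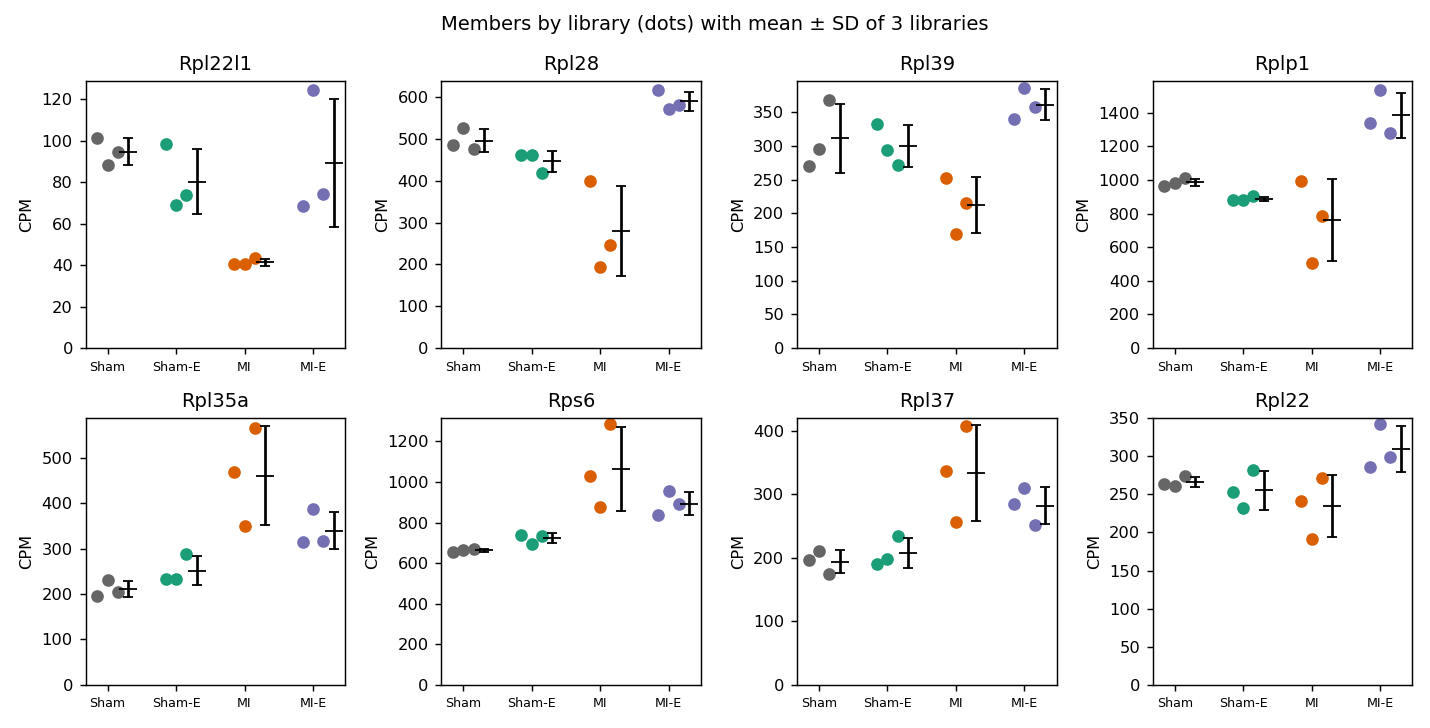
CPM of 8 ribosomal protein genes in each library (dots) with mean ± SD of 3 libraries; every axis starts at 0. Rpl22l1, Rpl28 and Rpl39 are lower in all MI libraries than in all other libraries, and Rpl35a, Rps6 and Rpl37 are higher in all MI libraries than in all Sham and Sham-E libraries on this scale; in log2(TPM + 1) the difference of Rpl37 between MI and Sham was 0.04.

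Promoter windows of RefSeq (GRCm38.p6, 250 bases before to 50 after an annotated start) were matched by symbol for 65 of the 90 members and 57 of the 77 core genes. The following 30-base stretches, from 20 bases before the start to 10 from it, are shown to set the start sequence beside the direction of change. They belong to the 4 highest and the 4 lowest members of MI against Sham that have a window, in descending order. Where a gene has several windows, one with a motif in the stretch was taken if any held it, otherwise the one nearest the annotated start. Capitals mark any match, on the printed strand, to 3 pyrimidine motifs, which can overlap one another: CTTTCC, its variant CTTTTC, and the third motif CTCTTT.
Rpl35a: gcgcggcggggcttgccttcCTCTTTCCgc
Rpl37: gaagtagtttcctgggcggaagcttatcca
Rps6: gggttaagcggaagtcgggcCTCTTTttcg
Rps21: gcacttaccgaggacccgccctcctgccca
Rpl39: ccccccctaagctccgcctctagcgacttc
Rpl3l: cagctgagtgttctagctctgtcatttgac
Rpl28: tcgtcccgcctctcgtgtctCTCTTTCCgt
Rpl22l1: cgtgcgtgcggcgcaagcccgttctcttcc
They lie at chr16:33056462-33056491 (Rpl35a, plus strand), chr15:5116593-5116622 (Rpl37, plus), chr4:86857358-86857387 (Rps6, minus), chr2:180257359-180257388 (Rps21, plus), chrX:37085213-37085242 (Rpl39, minus), chr17:24727806-24727835 (Rpl3l, plus), chr7:4792945-4792974 (Rpl28, plus) and chr3:28805488-28805517 (Rpl22l1, plus). Of these 8 stretches, 3 hold a motif, and they come from both ends of MI against Sham: Rpl35a and Rps6 from the upper end and Rpl28 from the lower. The other 5 hold none.

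Within 10 bases before to 15 after a start, on the sense strand, 16 of 57 core genes (28.1%) held at least 1 of the 3 motifs, against 305 of 10783 tested genes with a window (2.83%). On both strands of the whole 300-base window the shares were 82.5% and 53.1%. CCGGAAG, a core of ETS-family sites, was found on either strand of the window in 42.1% of core genes and 19.1% of all. The TATA-box letters TATAAA were found in 10.5% and 9.06%. A match is a description of the letters and not a measured site.

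MI-E marrow had higher levels than MI marrow for most members, but no single gene passed the test. None of 85 members was called by edgeR, against 0.00661% (1 gene) of all genes. At an unadjusted p under 0.05 there were 33 members higher in MI-E and 1 lower, against 8.52% and 8.88% of all genes. DESeq2 called 14 members (3.82% of all genes), and limma called 4 on log2(TPM + 1) (0.331%) and 6 on log2(TPM + 0.1) (0.443%). The log2 fold change was above 0 for 73 of 85 members, against 47.6% of all genes, with a median of 0.33 against -0.02. The MI-E libraries lay wholly above the MI libraries for 40 members (11.6% of all genes) and wholly below for none (10.1%). Without MI 2, 62 members were above 0, against 50% of all genes, with a median of 0.14. In that fit 40 lay wholly above (15.4% of all genes), 7 lay wholly below (15.1%) and edgeR called none (0.00645%). Without MI 1 it called 20, all higher (6.39%). With no filter on low counts it called 2, Rpl22l1 and Rpl28 (0.132%).

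The largest values of MI-E against MI were in Rps3a2, a processed copy of Rps3a1, with 1.53 ± 0.379 (adjusted p = 0.113), in Rpl22l1 with 1.105 ± 0.21 (adjusted p = 0.0847) and in Rpl28 with 1.07 ± 0.214 (adjusted p = 0.0847), all by edgeR. This comparison shares the MI libraries with MI against Sham, so the 2 sets of values are not independent. Rps3a2 was at only 1.04 to 2.18 CPM in MI and 3.98 to 5.05 CPM in MI-E, beside 981.9 to 1604 CPM and 1447 to 1712 CPM for Rps3a1. Of the stalk proteins, Rplp1 was at 963.7, 981.1 and 1009 CPM in Sham, 879.9, 877.7 and 901.3 CPM in Sham-E, 991.9, 508.1 and 785.4 CPM in MI, and 1336, 1536 and 1277 CPM in MI-E. Every MI-E library was above the other 9, and MI 2 was the lowest. Its log2 fold change was 0.86 ± 0.204 (adjusted p = 0.108).

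Rpl41, whose product is the shortest ribosomal protein, was at 570.0, 631.2 and 621.8 CPM in Sham, 587.1, 483.6 and 526.0 CPM in Sham-E, 592.5, 266.9 and 451.1 CPM in MI, and 826.5, 793.7 and 737.6 CPM in MI-E. MI-E was above the other groups in all libraries, and its log2 fold change against MI was 0.85 ± 0.227 (adjusted p = 0.126). At the lower end of MI-E against MI were Rpl6l (-0.55), Rpl35a (-0.44 ± 0.18, adjusted p = 0.24), Rps6 (-0.25), Rpl37 (-0.24) and Rps4l (-0.24), all with overlapping libraries.

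No difference between Sham-E and Sham was detected in these genes. None of 85 members was called by edgeR (0% of all genes), DESeq2 (0.0132%) or limma (0%), and none had an unadjusted p under 0.05, against 1.9% of all genes. The log2 fold change was above 0 for 35 of 85, against 52.5% of all genes, with a median of -0.03 against 0.01 for all genes. Core genes ranged from -0.21 (Rpl36) to 0.30 (Rpl36a). Rpl6l (0.63), Rpl36a (0.30), Rpl35a (0.25), Rps21 (0.25) and Rpl36al (0.25) were at the upper end, and Rpl22l1 (-0.24), Rpl36 (-0.21), Rpl21 (-0.20), Rpl41 (-0.19) and Rps3a2 (-0.18) at the lower end. The Sham-E libraries lay wholly above Sham for 9 members and wholly below for 5, against 4.52% and 4.46% of all genes.

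MI-E against Sham-E, the effect of infarction in animals given EMPA, had the most members on one side of 0. All 77 core genes had a log2 fold change above 0, from 0.21 (Rpl26) to 0.73 (Rpl36), and 83 of all 85 tested members did, against 50.4% of all genes. The exceptions were Rpl6l (-0.28) and Rpl3l (-0.16), both at low level. The median was 0.43 against 0.00 for all genes, with 0.42 for large and 0.44 for small subunit genes. In log2(TPM + 1) the median was 0.22 against -0.13 for all genes, and all 77 core genes remained above 0. The MI-E libraries lay wholly above the Sham-E libraries for 73 members, against 11.7% of all genes, and wholly below for none (12.2%). Leaving out each library in turn gave 82 to 84 members above 0 and medians of 0.36 to 0.46.

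None of these members was called by edgeR (0% of all genes), and the lowest adjusted p was 0.244. Unadjusted p under 0.05 was reached by 59 members, all higher in MI-E, against 5.99% of all genes higher and 7.45% lower (13.4% in either direction). DESeq2 called Rpl8, Rpl11, Rplp2 and Rps23 (1.4% of all genes), and limma called none. Without MI 2 edgeR called 2, Rpl8 and Rps23 (0.38%). Rps23, a protein of the decoding centre, was at 416.4, 376.2 and 396.0 CPM in Sham-E and 674.8, 693.8 and 588.3 CPM in MI-E, with 442.3, 458.7 and 411.2 CPM in Sham and 604.1, 393.0 and 680.3 CPM in MI. Its MI-E libraries were above all Sham and Sham-E libraries, and its log2 fold change was 0.72 ± 0.183 (edgeR adjusted p = 0.244). Rpl8, which lines the peptidyl transferase centre, was at 806.2, 758.8 and 759.3 CPM in Sham-E and 1264, 1203 and 1171 CPM in MI-E. Its log2 fold change was 0.65 ± 0.166 (adjusted p = 0.244).

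Rps3a2 (1.01), Rpl36 (0.73), Rpl38 (0.70) and Rpl35 (0.66) completed the upper end of MI-E against Sham-E. Rpl38, known in mice for its part in translation of Hox mRNAs, was at 160.1, 136.8 and 147.6 CPM in Sham-E and 241.6, 276.1 and 202.8 CPM in MI-E, without overlap. The lower end was held by Rpl7l1 (0.02) and Rpl22l1 (0.15 ± 0.207), besides Rpl6l, Rpl3l and Rpl26. Rpl22l1 in MI-E (68.3 to 124.5 CPM) overlapped Sham-E (68.8 to 98.3 CPM). The paralogue Rps27l, a p53 target, had 0.28 ± 0.112 (adjusted p = 0.32) beside 0.34 ± 0.228 for Rps27, and Rpl36al had 0.24 ± 0.164 beside 0.26 ± 0.193 for Rpl36a.

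**Figure D3:**
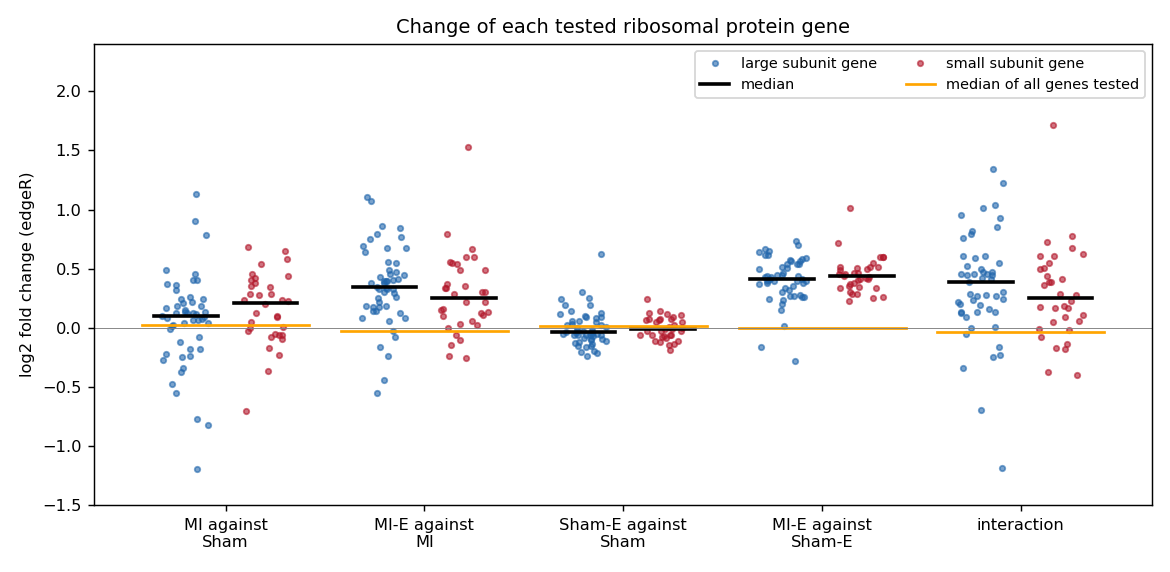
Log2 fold change (edgeR) of each tested member of the large (blue) and small (red) subunit in 5 comparisons, with the median of each subunit (black) and of all genes tested (orange). In MI-E against Sham-E 83 of 85 values are above 0, and in Sham-E against Sham they centre near 0. In MI against Sham the medians are 0.10 (large) and 0.21 (small), against 0.02 for all genes. In log2(TPM + 1) these 3 medians are -0.18, -0.07 and -0.11.

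The interaction, MI-E minus MI less Sham-E minus Sham, asks whether the EMPA difference was another in infarcted than in sham animals. It called no member by edgeR (1 gene, 0.00661%, of all genes) or limma (0.0463% and 0.0926% with a pseudocount of 1 and 0.1) and 2 by DESeq2, Rpl22l1 and Rpl28 (1.1%). Without MI 1 edgeR called 3, Rpl28, Rplp1 and Rps28 (0.97%). Unadjusted p under 0.05 was reached by 22 members, 21 of them positive, against 13.5% of all genes in either direction. The value was above 0 for 70 of 85 members with a median of 0.28, against 47.0% and -0.04 for all genes. Leaving out each library in turn gave medians of 0.11 (without MI 2) to 0.43 (without MI 1). With all libraries it was 0.39 over large and 0.25 over small subunit genes. The highest were Rps3a2 (1.71), Rpl22l1 (1.345 ± 0.294, edgeR adjusted p = 0.238), Rpl28 (1.22), Rpl41 (1.04) and Rplp1 (1.01). The lowest were Rpl6l (-1.18), Rpl35a (-0.70 ± 0.255, adjusted p = 0.301), Rps21 (-0.39), Rps6 (-0.37) and Rpl37 (-0.34).

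All 77 core genes were above 0 in MI-E against Sham-E, so any grouping of core proteins by role must share that direction. Roles are therefore given by their medians. The 4 stalk proteins, Rplp0, Rplp1, Rplp2 and Rpl12, had a median of 0.54, and Rplp0 was at 1823, 1716 and 1836 CPM in Sham-E and 2281, 2358 and 2456 CPM in MI-E. In MI against Sham 3 of the 4 were above 0, Rplp1 being the exception (-0.37 ± 0.203). Rpl5 and Rpl11, which carry the 5S RNA and can bind the p53 regulator Mdm2, had 0.30 ± 0.162 and 0.61 ± 0.175 in MI-E against Sham-E, and 0.08 and -0.18 in MI against Sham. The 7 genes of the exit tunnel rim had medians of 0.40 in MI-E against Sham-E and 0.13 in MI against Sham. In the latter they ran from -0.55 (Rpl39) to 0.45 (Rpl26).

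Among small subunit genes, the 14 proteins of the head were above 0 in MI-E against Sham-E, like every core gene (median 0.50). Of these, 13 of 14 were above 0 in MI-E against MI (median 0.455), and 7 of 14 in MI against Sham (median 0.03). Rps2 and Rps3, at the mRNA entry, had 0.26 and 0.52 in MI-E against Sham-E. Rpsa, which also serves as a laminin receptor, was at 2097, 1773 and 1838 CPM in Sham-E, 2620, 1715 and 2676 CPM in MI and 2375, 2841 and 2454 CPM in MI-E. MI-E was above Sham-E in all libraries, by 0.43 ± 0.185 in log2 (edgeR, adjusted p = 0.349). The 18 Diamond-Blackfan anaemia genes were above 0 in MI-E against Sham-E, like every core gene (median 0.44), and 15 of 18 were in MI-E against MI (median 0.38). The 6 tested paralogues had a median of 0.19 in MI-E against Sham-E, with 5 of 6 above 0.

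**Figure D4:**
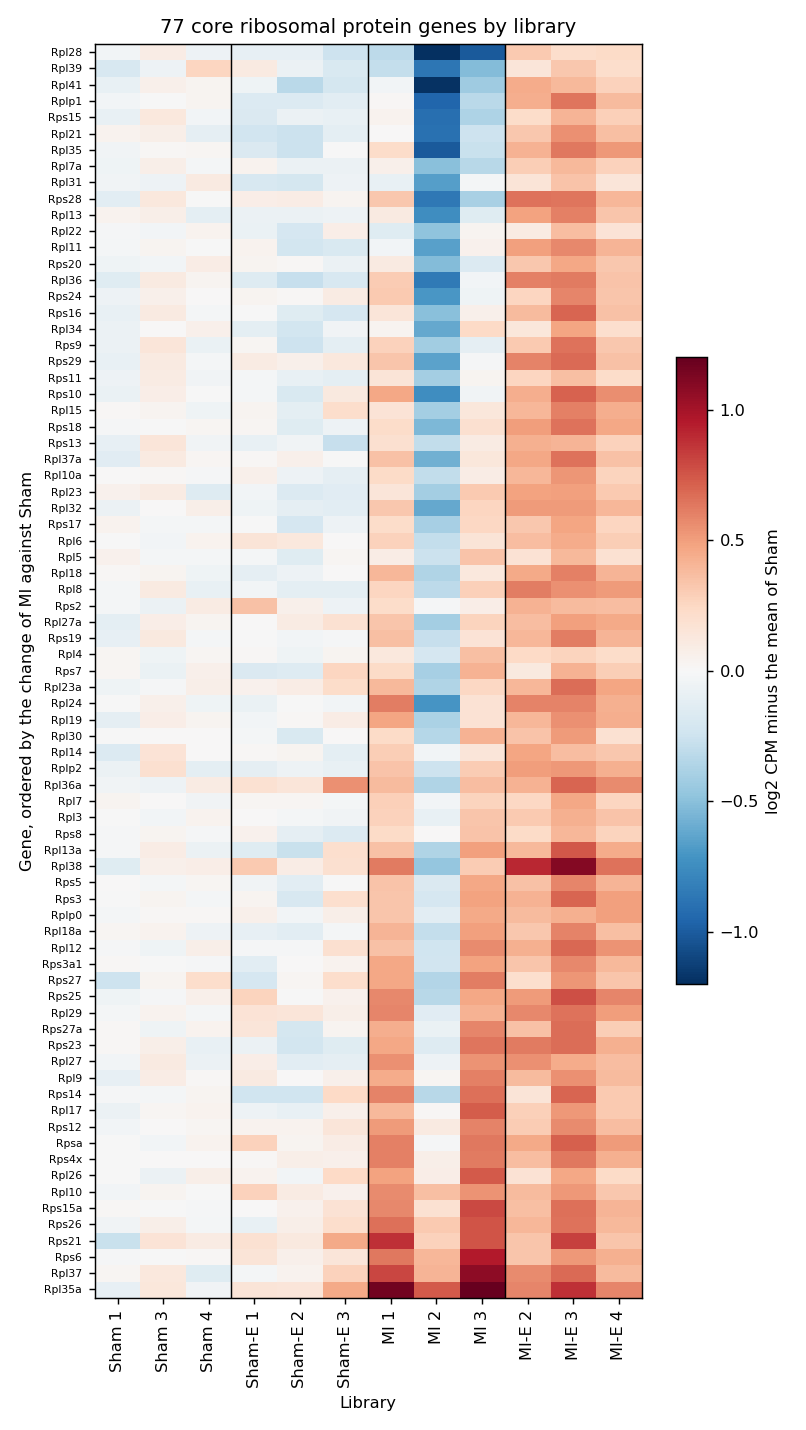
Log2 CPM of the 77 core genes in each library minus the mean of Sham, red above and blue below, with genes ordered by MI against Sham. The column of MI 2 is blue for most genes in the upper part, and Rpl35a, Rpl37 and Rps6 at the bottom are red in all 3 MI libraries.

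Rps19 and Rps14 showed how much the unit mattered. Rps19, which matures the small subunit rRNA, was at 439.7, 509.4 and 463.4 CPM in Sham and 602.8, 387.9 and 527.2 CPM in MI. On counts its difference was 0.10 ± 0.163 in log2 (adjusted p = 0.754, edgeR). In TPM it was at 2201, 2258 and 1946 in Sham and 1398, 1041 and 1366 in MI, without overlap, and limma on log2(TPM + 1) called it lower by 0.76 (adjusted p = 0.037). The CPM libraries overlapped, whereas the TPM libraries did not. The effective length, which is the isoform-weighted number of start positions that RSEM assigned to a gene and is recovered here as counts over TPM, was 250.9, 275.3 and 289.2 bases in Sham, 286.4, 347.6 and 399.9 in Sham-E, 459.2, 432.2 and 429.5 in MI, and 285.5, 299.8 and 316.1 in MI-E. For Rps14 it was 199.0, 205.7 and 206.9 bases in Sham and 333.5, 300.9 and 301.8 in MI, while its CPM overlapped (0.38 ± 0.248, adjusted p = 0.421).

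Rpl13a, and Rps3, which was chosen after its values were seen, went the other way. Rps3 had an effective length of 1161, 1158 and 1058 bases in Sham, 982.7, 841.3 and 740.9 in Sham-E, 729.0, 636.4 and 643.3 in MI, and 977.9, 932.0 and 876.3 in MI-E. Rpl13a had 443.2, 424.9 and 406.0 bases in Sham and 263.3, 270.2 and 256.6 in MI. In both, the MI libraries were below all others. Over 83 tested members with a value in all 12 libraries, effective length was longer in every MI than in every Sham library for 66. It was shorter for 8, against 33.5% longer and 6.75% shorter of 12555 genes with a value in all 12. Shorter inserts leave more start positions on each transcript, a larger share of a short one. The mean insert was 286 bp in Sham and 264.1 bp in MI. Median transcript length was 681 bases for tested members and 2489 for all genes. The count of longer members was thus fixed in part by the inserts and is not a separate trait of these genes. The change exceeded 1.25-fold without overlap for 21 of 83 (25.3%), against 4.19% of all genes. In MI-E against Sham-E none of the members did, against 1.7% of all genes. The parts of insert length and of isoform weighting in these counts were not tested. With effective length as an offset in edgeR, the members' median was 0.03 in MI against Sham, 0.40 in MI-E against MI and 0.42 in MI-E against Sham-E.

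**Figure D5:**
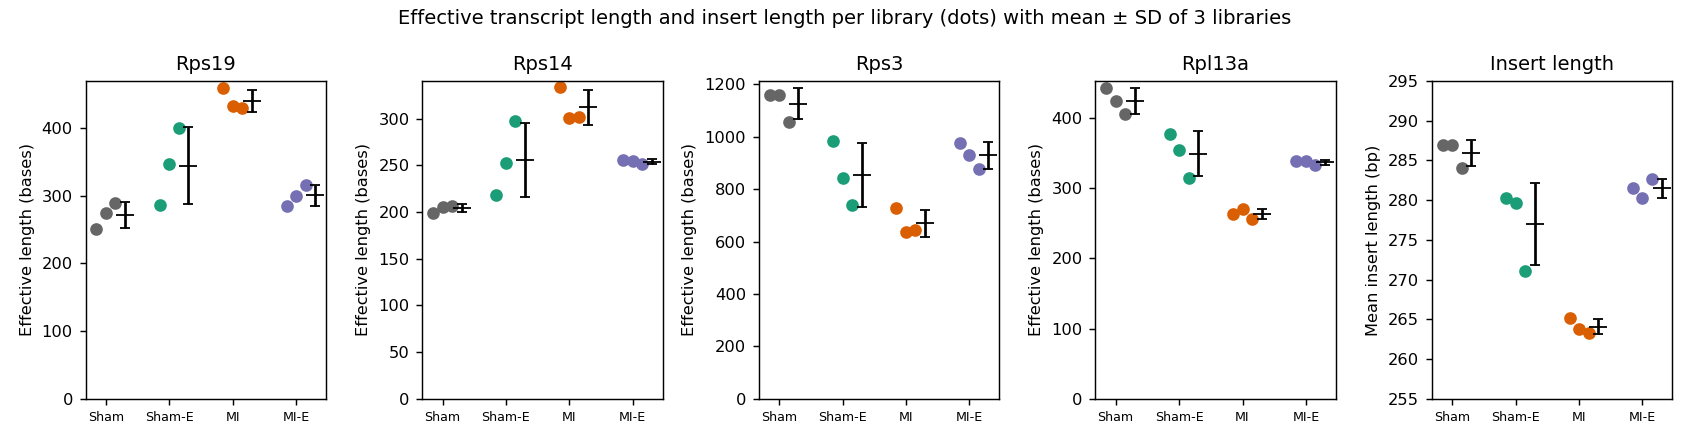
Effective length in bases of Rps19, Rps14, Rps3 and Rpl13a (axes from 0) and mean insert length in bp (right, axis not from 0) for each library (dots) with mean ± SD of 3 libraries. The MI libraries lie above all others for Rps19 and Rps14, below all others for Rps3 and Rpl13a, and have the shortest inserts.

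Members were short, and the change of the core genes varied with base composition. The core large subunit transcripts had a median length of 724 bases and 52.2% GC, and the small subunit transcripts 644 bases and 52.5% GC. Across the 77 core genes, which share libraries and are not independent replicates, Pearson's r between transcript GC and log2 fold change was -0.33 in MI against Sham, 0.38 in MI-E against MI, -0.33 in Sham-E against Sham and 0.36 in MI-E against Sham-E. Over all 85 tested members the r was weaker, at -0.12, 0.157, -0.201 and 0.199 in the same order. Over all genes with annotation the r was -0.14, 0.34, -0.07 and 0.25. The 25 core genes of lowest GC (41.3% to 50%) had a median of 0.24 in MI against Sham, and the 25 of highest GC (54.3% to 63.1%) had 0.09. In MI-E against Sham-E these medians were 0.41 and 0.51, and every gene of both sets was above 0. The part of GC content in these values was not tested.

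Other genes of translation were read as lists, by counts and medians. Fau and Rack1, ribosomal proteins outside the naming rule, had log2 fold changes of 0.53 ± 0.164 and 0.37 ± 0.152 in MI-E against Sham-E (edgeR adjusted p = 0.258 and 0.333). The list named elongation held Eef1a1, Eef1b2, Eef1d, Eef1g, Eef2 and Eif5a, and also Tpt1, Naca and Btf3. All 9 of its genes were above 0 in MI-E against Sham-E (median 0.28). So were 17 of 26 initiation genes (0.15), 31 of 36 assembly and rRNA processing genes (0.20) and 11 of 14 RNA polymerase I genes (0.12). The same held for 8 of 16 mTOR pathway genes (0.00) and 6 of 6 snoRNA host genes of the TOP class (0.29). Mitochondrial ribosomal proteins had 71 of 78 above 0 (0.20). No gene of the 7 pathway lists was called by edgeR in any comparison. The closest in MI against Sham were Eif3i, an initiation factor subunit (0.56 ± 0.115, adjusted p = 0.0549), Snhg6, a snoRNA host (0.84 ± 0.175, 0.0549), and Eif2s2 (0.62 ± 0.137, 0.0587). Gar1, of the box H/ACA particles that modify rRNA, had 1.16 ± 0.221 in MI-E against MI (adjusted p = 0.0847).

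Markers of other properties moved with the same contrasts. In MI against Sham, summed CPM of 14 early B-lineage genes was 569.9 to 712 in MI against 1077 to 1561 in Sham (0 of 14 positive), that of 8 plasma cell genes 338 to 495 against 496 to 559 (1 of 8), and that of 14 proliferation genes 4011 to 4457 against 5042 to 5998 (1 of 14). That of 9 immature neutrophil genes was 24750 to 41900 against 19290 to 22350 (8 of 9). Counts on mitochondrially encoded genes were 2.23% to 3.58% in MI and 1.33% to 1.87% in the other libraries. In MI-E against MI, mature B-cell genes (1802 to 2508 against 1232 to 1742, 12 of 12 positive), megakaryocyte genes (210 to 252 against 86.9 to 173, 8 of 8), stroma genes (231 to 374 against 108 to 186, 7 of 10) and proliferation genes (4871 to 6556 against 4011 to 4457, 12 of 14) were higher without overlap.

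In MI-E against Sham-E, megakaryocyte genes were at 210 to 252 CPM against 73.8 to 124 (8 of 8 positive) and plasma cell genes at 386 to 447 against 458 to 575 (0 of 8). Proliferation genes overlapped there, at 4871 to 6556 against 4202 to 6435 CPM (10 of 14 positive). The sum of erythroid genes overlapped too, at 23990 to 43250 against 6978 to 34500 CPM, with 13 of 13 genes positive. All 13 erythroid genes were also positive in MI-E against MI, where their sum overlapped. In Sham-E against Sham the T and natural killer cell genes were higher (169 to 188 against 144 to 168, 9 of 12 positive). The summed levels of the remaining lists overlapped in each comparison, and no listed marker was at 0 in all libraries. The part of cell composition in the ribosomal protein values was not tested.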

How the data were processed

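RNA of 12 bone marrow libraries was sequenced; per the submitters' processing notes, tools included STAR 2.4.0j and RSEM on mm10, after CASAVA 1.8, with strand not stated. The authors deposited expected counts per gene, already rounded to whole numbers, and TPM values, which divide by effective length. Columns of Sham-E and MI were assigned to samples by title; those of Sham and MI-E, whose numbers differ from the titles, to the group only. From the counts, edgeR 4.0.16 (R 4.3.3) was run with filterByExpr, TMM scaling, robust quasi-likelihood fits and 4 group means over 12 libraries (8 residual degrees of freedom). P-values were adjusted by Benjamini-Hochberg over 15119 genes (threshold 0.05). Each standard error was taken as the fold change in log2 divided by root F. The fit was tested on simulated data. Alternatives were DESeq2 1.42.0, limma 3.58.1 on log2(TPM + 1) and log2(TPM + 0.1), other scaling and filters, an effective length offset, the 2 groups alone, the column number as a block (added after seeing the data), and each library left out.

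Effective length is counts over TPM, scaled per library with single-transcript genes of GENCODE M21, which also give the insert length, the positions and the GC content. Named genes were members past the threshold, the 5 highest and 5 lowest per comparison, 17 genes always read, the 5 highest and 5 lowest in TPM, and in pathway lists the 2 of smallest p. The members, the 7 role, 7 pathway and 13 marker lists and the rules were chosen with earlier results of these data known.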

Additional observations from a re-analysis of the deposited data

How the results depend on the processing

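Counts of members past the threshold depended on the tool. DESeq2 called 10 in MI against Sham (7.05% of all genes) and 14 in MI-E against MI (3.82%). It called 4 in MI-E against Sham-E (1.4%) and 2 in the interaction (1.1%). Limma called 11 and 4 in the first 2 comparisons on log2(TPM + 1) (1.87% and 0.331%). On log2(TPM + 0.1) it called 11 and 6 (1.78% and 0.443%). With no filter on low counts edgeR called 2 in MI-E against MI (0.132%). On either TPM scale the members' median was -0.17 in MI against Sham and 0.22 in MI-E against Sham-E. For all genes these medians were -0.11 and -0.13 on log2(TPM + 1). Rps19 in MI against Sham reversed to -0.76 on either TPM scale. Leaving out each library gave 0 to 7 calls in MI against Sham. There were 0 without Sham 1, Sham 3, Sham 4, Sham-E 2, MI 3, MI-E 2 or MI-E 4. There were 7 without Sham-E 1 (7.9% of all genes) or MI 2 (1.84%). MI-E against MI had 0 to 20 calls (20 without MI 1, 6.39%). MI-E against Sham-E had 0 to 2 (2 without MI 2, 0.38%), and the interaction 0 to 3 (3 without MI 1, 0.97%). Leaving out libraries moved the median between 0.01 and 0.28 in MI against Sham and between 0.14 and 0.42 in MI-E against MI. In the interaction it moved between 0.11 and 0.43. The members wholly above in MI against Sham ran from 13 to 56. This count, chosen after seeing the data, was 56 without MI 2 (22.5% of all genes). The mean share of the members was 15.5%, 14.6%, 14.0% and 17.4% in TPM for Sham, Sham-E, MI and MI-E. Outside mitochondrial and haemoglobin genes it was 5.19%, 5%, 5.378% and 6.565% of counts in the same order. The cause of these shifts was not tested. Titles number the samples 1 to 3 in each group, but Sham and MI-E columns could not be tied to a title, so the pairing by label was not fitted. With the column number as a replicate block, added after seeing the data, edgeR called 0 members in MI against Sham, with an adjusted p of 0.13 for Rpl35a and Rpl22l1, and 0 in the other comparisons. Deviations from group means of columns with the same number correlated at -0.21 to 0.15 over 13 pairs, so the numbers were not taken to pair the libraries. The 3 libraries per group limit precision, and Rpl3l, Rpl6l and Rps3a2 also rest on few counts.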
